A study of Mus musculus with 32 samples.

Results

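Ribosome biogenesis factors are the nucleolar proteins that make ribosomes. The genes described here were chosen by name, as 41 genes of RNA polymerase I transcription, the small nucleolar ribonucleoproteins (snoRNPs), the small subunit processome and the assembly of both subunits, out of 55401 gene identifiers counted. All 41 were found by symbol, and all 41 passed the filter on low counts. RNA was sequenced from the epidermis of 32 mice of a hairless SKH-1/SV129/BL6/J background, aged 10 to 14 weeks. The genotypes were wild type (WT) and Ppard-/- (KO) littermates, the latter labelled as deficient in the nuclear receptor PPARβ/δ. Mice of each genotype and sex were either sham manipulated (Control) or given 120 mJ/cm² of UV on the back and killed 24 h later (UV). Each of the 8 groups of genotype, sex and treatment held 4 mice, so each genotype and treatment is represented by 8 mice. The question put to the data was how the level of each factor depended on UV and on genotype, step by step along the pathway.

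In the nucleolus, RNA polymerase I transcribes a long precursor of the ribosomal RNAs. SnoRNPs modify the precursor, the processome folds and cleaves it on the small subunit side, and other factors build the precursor of the large subunit and help to export both particles. Making ribosomes is among the most costly tasks of a growing cell, and in many cell types the genes of the pathway are targets of the transcription factor Myc, which binds the E-box CACGTG together with Max. The stretches that hold an E-box are printed here as sequence only.

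The window from 250 bases before to 50 bases after the annotated start was taken from RefSeq (GRCm38.p6), and 36 of the 41 genes matched an entry. The letters CACGTG, which read the same on both strands, occurred in the windows of 9 of these 36 genes (25%), against 11.2% of the 11323 tested genes with a window. There were 10 matches, and 7 of them lay 2 to 40 bases after the start. Among windows with the motif, 7 of 9 held it after the start in this gene set, while 202 of 1350 (15%) did so among tested genes. This is a description of letters and not of binding. Each match is shown 5′ to 3′ on the strand of the gene with up to 12 bases on either side, with the E-box in capitals.

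Ltv1 (chr10:13193092-13193121, - strand): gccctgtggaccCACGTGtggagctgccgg
Mybbp1a (chr11:72441355-72441376, + strand): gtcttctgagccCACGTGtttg
Nop2 (chr6:125131811-125131840, + strand): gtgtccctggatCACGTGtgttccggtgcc
Pes1 (chr11:3963965-3963994, + strand): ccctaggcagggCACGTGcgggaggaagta
Rrn3 (chr16:13780472-13780501, + strand): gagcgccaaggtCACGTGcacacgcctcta
Rrn3 (chr16:13780639-13780668, + strand): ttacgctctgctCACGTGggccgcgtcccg
Tsr1 (chr11:74898092-74898121, + strand): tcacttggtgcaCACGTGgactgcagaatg
Utp20 (chr10:88826765-88826789, - strand): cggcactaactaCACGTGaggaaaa
Utp4 (chr8:106893643-106893672, + strand): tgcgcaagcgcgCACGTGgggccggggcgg
Wdr43 (chr17:71616220-71616249, + strand): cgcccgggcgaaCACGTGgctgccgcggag

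In WT mice the log2 fold changes of these genes after UV ran from 0.28 (Pes1) to 1.60 (Utp4), the largest of the whole set. Their median was 0.95 in WT mice, against 0.77 for the genes with a window and no match, and 0.70 against 0.70 in KO mice. No difference between genes with and without the motif was tested. As for base composition, the windows of the set held a median of 59.7% G and C, against 52.7% over all windows. All windows include those of genes not tested here, while the motif shares are set against tested genes only. The E-box was not the only motif searched whose share differed from that of tested genes. CCGGAAG, on either strand, occurred in 38.9% of the 36 genes, against 18.35% of tested genes with a window. For GGGCGG the shares were 83.3% and 64.4%, and for TATAAA 5.56% and 10.29%. What lies behind these shares was not tested.

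Libraries held 22919428 to 40653581 reads counted on genes. The 41 genes took 0.198% to 0.265% of the counted reads in control mice and 0.321% to 0.435% after UV. Levels of genes are given in cpm (counts per 1000000 counted reads) after scaling of the libraries, except that Ppard is given without scaling. In the KO libraries Ppard itself was still counted, at 67.2 to 84.9 cpm in controls and 174 to 255 cpm after UV. In WT mice it had 85.2 to 111 cpm and 243 to 317 cpm, so gene totals do not check the deletion. The part of the gene that was removed is not given in the sources used here. Keratinocyte markers were present in every library, with at least 5321 summed cpm for 6 basal genes (Krt5, Krt14 and others) and 7365 summed cpm for 7 suprabasal genes (Krt1, Krt10 and others). The KO female UV mouse 54F stood apart with 1982 summed cpm of 6 dermal fibroblast genes, where no other mouse exceeded 92.2 cpm, and 3 KO UV mice (58M, 74F and 52F) had over 5% mitochondrial reads. Without 54F, 38 of the 41 genes were still called after UV in KO mice, the same number as with it. That number was also 38 without 58M, without 74F and without 52F. In bulk tissue, fewer cells of a type and less RNA per cell cannot be told apart.

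After UV, nearly the whole pathway rose in WT epidermis. Of the 41 genes, 40 were higher at an adjusted p under 0.05 (called), and none was called lower by edgeR, DESeq2 or limma-trend. Over all 15546 genes tested, 34.5% were called higher and 36.5% lower. The median log2 fold change of the 41 genes was 0.77, while the median over all genes was -0.01. With a fold change over 1.5 required as well, 30 of the 41 genes were called, against 21.8% of all genes. In 35 of the 41 the lowest UV mouse lay above the highest control mouse, which held for 21.3% of all genes. The 6 genes whose mice overlapped were Polr1b, Fbl, Nhp2, Ddx10, Pes1 and Wdr12.

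In KO epidermis the same direction was found. Called higher were 38 of the 41 genes, and none was called lower, against 37.3% of all genes called higher and 33.5% called lower. The median log2 fold change was 0.70, with 0.09 over all genes, and 25 of the 41 were called with a fold change over 1.5 (24.8% of all genes). The lowest UV mouse lay above the highest control mouse for 29 of the 41, against 18.6% of all genes. Not called were Fbl, Polr1b and Wdr75.

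**Figure D1:**
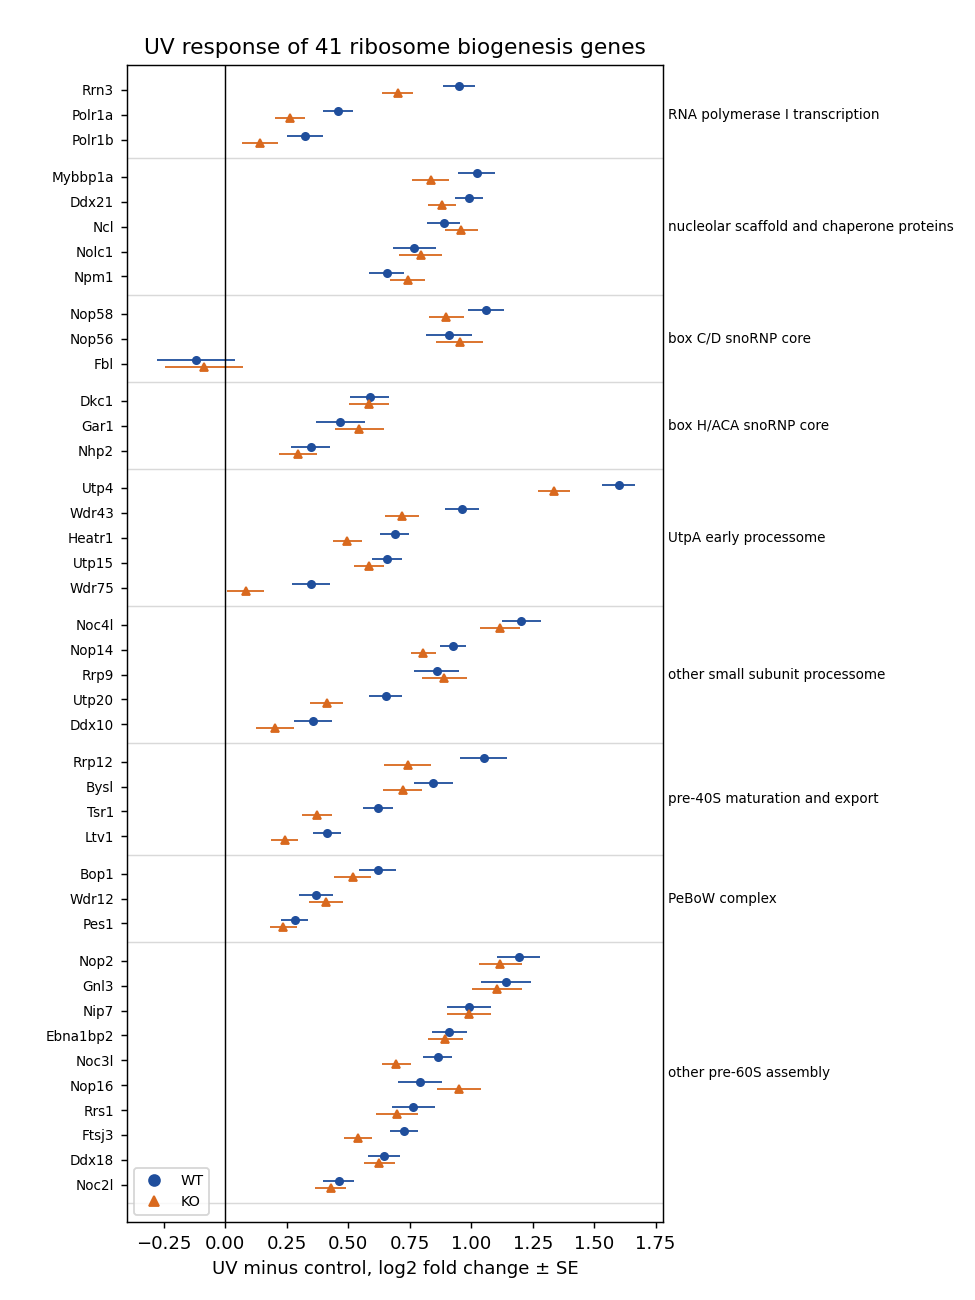
Log2 fold change after UV (x axis, with its standard error) of each of the 41 genes (y axis), grouped by step, in WT mice (circles) and KO mice (triangles), from 8 UV and 8 control mice per genotype. Every point lies right of 0 except those of Fbl, and Utp4 lies farthest right in both genotypes, at 1.60 in WT and 1.34 in KO.

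The mean log2 cpm of the 41 genes placed every UV mouse above every control mouse. It ran from 5.30 to 5.57 (median 5.40) in WT controls and from 5.98 to 6.29 (median 6.16) in WT mice after UV. In KO mice it ran from 5.21 to 5.55 (median 5.44) in controls and from 5.92 to 6.25 (median 6.06) after UV. The gap between the treatments was therefore several times the spread among the mice of a group, whose SD was 0.09 to 0.11. Single mice shifted most genes in parallel: the KO male UV mouse 72M was the highest of its 8 for 26 of the 41 genes, and the WT female UV mouse 77F was the lowest of its 8 for 28.

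**Figure D2:**
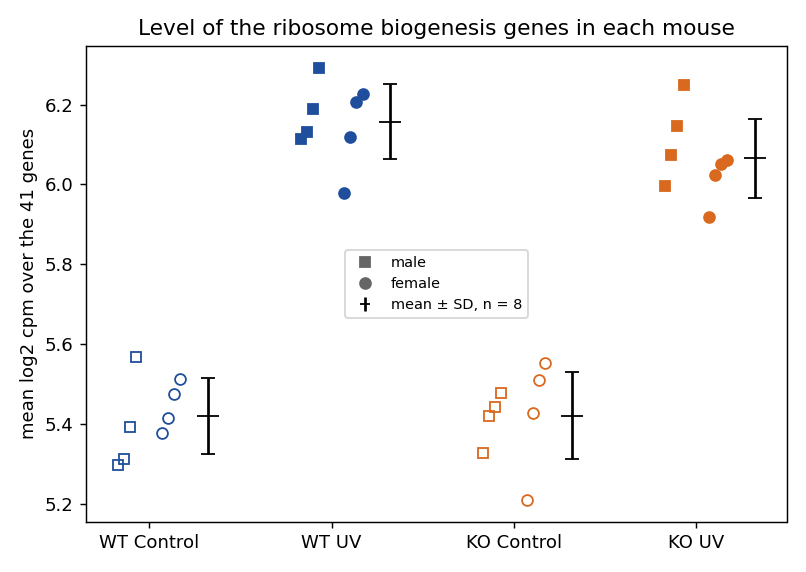
Mean log2 cpm over the 41 genes (y axis) in each of the 32 mice, by genotype and treatment (x axis), with males as squares, females as circles, and mean ± SD of 8 mice beside them. The control mice sit between 5.21 and 5.57 and the UV mice between 5.92 and 6.29.

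At the start of the pathway, the 3 genes of RNA polymerase I transcription rose unequally in WT mice. Positions of genes are given on GRCm38 as annotated by GENCODE M21. Rrn3 (chr16:13780708-13814839) encodes the initiation factor that brings the polymerase to the ribosomal RNA promoter. Its lowest, median and highest values in WT mice were 66.2, 74.9 and 77.7 cpm in controls and 124, 132 and 169.8 cpm after UV (log2 fold change 0.95 ± 0.06 (SE), adjusted p = 3.82e-13). In KO mice they were 69.7, 82.1 and 89.1 cpm in controls and 107, 133 and 146 cpm after UV (log2 fold change 0.70 ± 0.06 (SE), adjusted p = 1.85e-10). The groups did not overlap in either genotype. The 2 catalytic subunits changed less. Polr1b (chr2:129100995-129126594), the second largest subunit, had 24.6, 31.4 and 35.8 cpm in controls and 34.5, 39.7 and 43.01 cpm after UV in WT mice (log2 fold change 0.32 ± 0.07 (SE), adjusted p = 0.000309). The corresponding KO values were 25.5, 30.6 and 36.1 cpm in controls and 28.5, 34.1 and 36.9 cpm after UV (log2 fold change 0.14 ± 0.07 (SE), adjusted p = 0.0887), which missed the threshold. Polr1a, the largest subunit, changed by 0.46 in WT and 0.26 in KO on the log2 scale, and both were called.

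All 5 nucleolar scaffold and chaperone genes rose by more than 1.5-fold in both genotypes. The largest rise in WT mice was that of Mybbp1a (chr11:72441355-72451768), a nucleolar protein that binds Myb and joins in ribosomal RNA processing. It had 109.6, 121 and 150.4 cpm in controls and 197, 256 and 271 cpm after UV in WT mice (log2 fold change 1.02 ± 0.07 (SE), adjusted p = 1.16e-12). For KO mice the values were 102, 120.2 and 139 cpm in controls and 191, 211 and 241 cpm after UV (log2 fold change 0.84 ± 0.07 (SE), adjusted p = 7.38e-11). The smallest rise was that of Npm1 (chr11:33152287-33163206; nucleophosmin, a histone and ribosomal protein chaperone), with 118, 126 and 151 cpm in controls and 169.8, 207 and 232 cpm after UV in WT mice (log2 fold change 0.66 ± 0.07 (SE), adjusted p = 3.79e-09). It had 109, 127 and 136 cpm in controls and 178, 204 and 262 cpm after UV in KO mice (log2 fold change 0.74 ± 0.07 (SE), adjusted p = 3.99e-10). Neither gene overlapped between treatments. Log2 fold changes in WT and KO mice were 0.89 and 0.96 for Ncl (nucleolin), 0.99 and 0.88 for the helicase Ddx21, and 0.77 and 0.79 for Nolc1, a chaperone of snoRNPs. Of the windows of 100 bases in Npm1 transcripts, 12.7% also occur in transcripts of other genes, so reads from these windows may have been left out of the counts.

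The box C/D snoRNPs guide methylation of ribosomal RNA, and among the transcripts of their core proteins Fbl alone was not called. The scaffold protein Nop58 (chr1:59684971-59719044) had 53.8, 60.1 and 70.9 cpm in controls and 103, 129 and 145 cpm after UV in WT mice (log2 fold change 1.06 ± 0.07 (SE), adjusted p = 3.85e-13). Nop58 had 50.9, 62.6 and 70.0 cpm in controls and 103, 115 and 142 cpm after UV in KO mice (log2 fold change 0.90 ± 0.07 (SE), adjusted p = 1.18e-11). Its partner Nop56 changed by 0.91 in WT and 0.95 in KO on the log2 scale. Both were called in both genotypes without overlap between UV and control mice. Fbl (fibrillarin, chr7:28169710-28179269), the methyltransferase of the complex, was the one gene of the 41 not called in WT mice. It had 3.53, 4.81 and 7.39 cpm in controls and 2.87, 4.91 and 5.599 cpm after UV in WT mice (log2 fold change -0.12 ± 0.16 (SE), adjusted p = 0.516) and 3.56, 4.88 and 6.10 cpm in controls and 3.76, 4.19 and 5.55 cpm after UV in KO mice (log2 fold change -0.09 ± 0.16 (SE), adjusted p = 0.635), with full overlap. Its count was the lowest of the 41, with a mean of 134 reads and a minimum of 83 per mouse. Per kilobase of exon its level was 1.21 cpm in WT controls, against 26.0 cpm per kilobase for Ncl. Exon length here joins the exons of all annotated transcripts of a gene, 4209 bases for Fbl and 10188 for Ncl. It is not the length of 1 messenger RNA, so levels per kilobase depend on the annotation. Of its windows of 100 bases, 15.3% recur in other genes, among them Gm5812 and Gm6211. How much of the Fbl transcript the counts hold was not tested.

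The 3 core genes of the box H/ACA snoRNPs, which guide pseudouridine formation, were called in both genotypes. Dkc1 (dyskerin, the pseudouridine synthase, chrX:75095854-75109777) rose most, with 27.7, 36.0 and 43.5 cpm in controls and 46.3, 53.9 and 61.8 cpm after UV in WT mice (log2 fold change 0.59 ± 0.08 (SE), adjusted p = 2.73e-07). Dkc1 had 28.6, 33.9 and 39.0 cpm in controls and 44.8, 49.5 and 64.1 cpm after UV in KO mice (log2 fold change 0.59 ± 0.08 (SE), adjusted p = 2.99e-07). Nhp2 (chr11:51619735-51623714), an RNA-binding subunit, rose least, with 77.04, 86.1 and 106 cpm in controls and 103, 109 and 124 cpm after UV in WT mice (log2 fold change 0.35 ± 0.08 (SE), adjusted p = 0.000272). Nhp2 had 80.8, 93.3 and 119 cpm in controls and 86.8, 117 and 154 cpm after UV in KO mice (log2 fold change 0.30 ± 0.08 (SE), adjusted p = 0.0014), and its UV and control mice overlapped in both genotypes. Gar1 lay between them, with log2 fold changes of 0.47 in WT and 0.55 in KO. By this joined exon length, 1146 bases for Nhp2, Nhp2 had the highest level of the 41, 76.3 cpm per kilobase in WT controls. Npm1 followed at 49.2. The order could differ with the length of the transcript in use, which was not tested.

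The widest range was found in UtpA, the subcomplex that binds the nascent precursor as the processome forms. Utp4 (cirhin, chr8:106893636-106923088) showed the largest rise of the 41 genes in either genotype. Its values were 30.8, 34.7 and 41.7 cpm in controls and 91.0, 106 and 118 cpm after UV in WT mice (log2 fold change 1.60 ± 0.07 (SE), adjusted p = 1.59e-17), a fold change of 3.03. In KO mice they were 30.9, 36.7 and 41.6 cpm in controls and 79.9, 91.5 and 106 cpm after UV (log2 fold change 1.34 ± 0.07 (SE), adjusted p = 5.38e-16), a fold change of 2.52. The lowest UV mouse was 2.18 times as high as the highest control mouse in WT and 1.92 times in KO mice. Wdr75 (chr1:45795166-45823619), of the same subcomplex, had 38.3, 40.3 and 43.3 cpm in controls and 46.8, 50.9 and 58.7 cpm after UV in WT mice, without overlap (log2 fold change 0.35 ± 0.08 (SE), adjusted p = 0.000192). The KO values were 35.9, 41.3 and 47.1 cpm in controls and 35.2, 42.4 and 58.5 cpm after UV, with overlap (log2 fold change 0.08 ± 0.08 (SE), adjusted p = 0.335). The other members had intermediate log2 fold changes, at 0.96 and 0.72 for Wdr43, 0.69 and 0.50 for Heatr1, and 0.66 and 0.59 for Utp15 in WT and KO mice.

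The other 5 processome genes were called in both genotypes. Noc4l (chr5:110648418-110653417), which acts with Nop14 in maturation of the small subunit, had 21.5, 25.2 and 28.6 cpm in controls and 50.4, 56.6 and 67.4 cpm after UV in WT mice (log2 fold change 1.20 ± 0.08 (SE), adjusted p = 1.99e-13). Noc4l had 19.8, 24.8 and 28.7 cpm in controls and 49.4, 53.3 and 65.6 cpm after UV in KO mice (log2 fold change 1.12 ± 0.08 (SE), adjusted p = 1.02e-12). UV and control mice were well separated. Ddx10 (chr9:53098635-53248053), a helicase, had 22.6, 24.0 and 25.3 cpm in controls and 24.6, 31.0 and 34.2 cpm after UV in WT mice (log2 fold change 0.36 ± 0.08 (SE), adjusted p = 0.000167), with overlap. Ddx10 had 20.9, 24.2 and 28.4 cpm in controls and 23.5, 28.1 and 34.3 cpm after UV in KO mice (log2 fold change 0.20 ± 0.08 (SE), adjusted p = 0.0211). The KO call of Ddx10 was lost in 8 of the other settings and left-out mice tried. Utp20 (chr10:88746607-88826804), a large late-joining processome protein, had 56.4, 61.7 and 67.2 cpm in controls and 81.9, 97.7 and 108 cpm after UV in WT mice (log2 fold change 0.65 ± 0.07 (SE), adjusted p = 1.97e-09). It had 50.2, 60.2 and 73.6 cpm in controls and 70.3, 79.9 and 98.2 cpm after UV in KO mice (log2 fold change 0.41 ± 0.07 (SE), adjusted p = 4.97e-06), where a single control mouse (44M) overlapped. Rrp9 changed by 0.86 in WT and 0.89 in KO mice on the log2 scale, and Nop14 by 0.93 and 0.81.

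**Figure D3:**
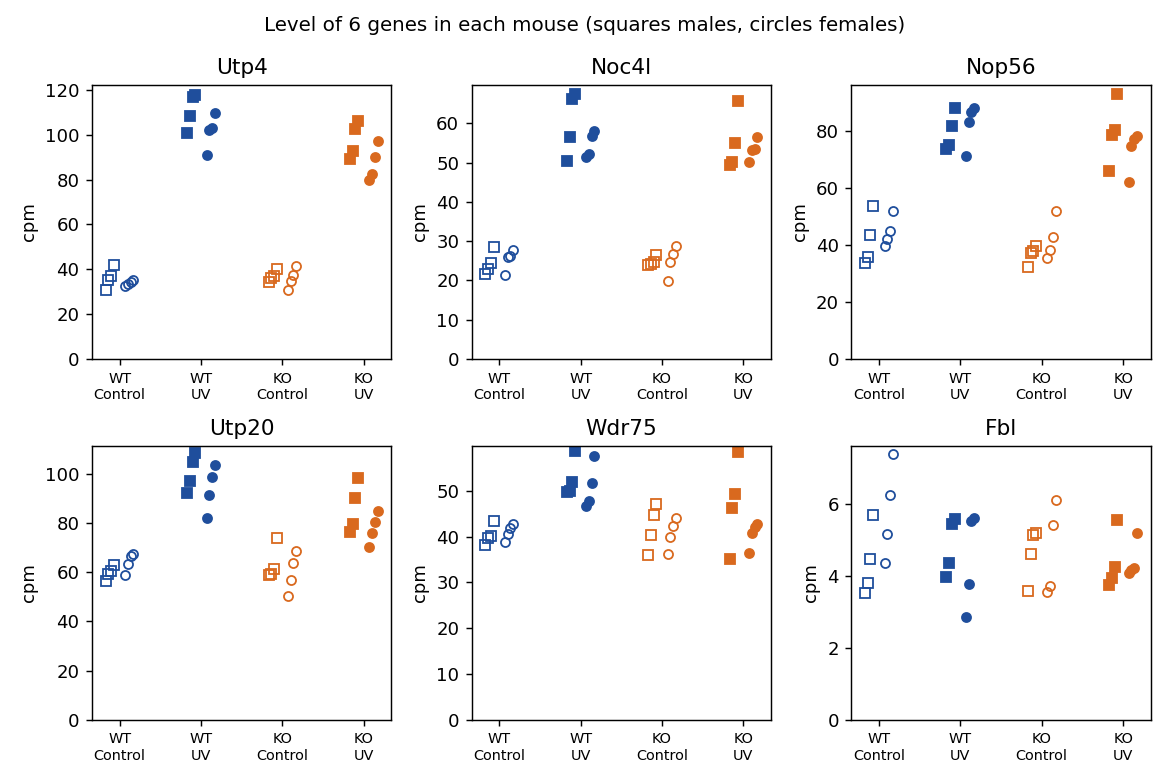
Level in cpm (y axis, from 0) of 6 genes in each mouse, by genotype and treatment (x axis), with males as squares, females as circles, WT in blue and KO in orange. Utp4, Noc4l and Nop56 separate the treatments in both genotypes, Wdr75 does so in WT mice only, and the Fbl values overlap throughout.

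Among the 4 genes of late small subunit maturation and export, all were called in both genotypes. Rrp12 (chr19:41862851-41896173), an export factor, had 35.5, 42.3 and 45.8 cpm in controls and 63.2, 91.5 and 97.6 cpm after UV in WT mice (log2 fold change 1.05 ± 0.10 (SE), adjusted p = 1.4e-10). Rrp12 had 33.7, 46.6 and 59.1 cpm in controls and 67.01, 79.0 and 94.5 cpm after UV in KO mice (log2 fold change 0.74 ± 0.10 (SE), adjusted p = 8.93e-08). Neither overlapped. Ltv1 (chr10:13178140-13193168), which leaves the particle before the small subunit is finished, had 28.8, 32.1 and 36.2 cpm in controls and 39.4, 43.2 and 47.4 cpm after UV in WT mice (log2 fold change 0.41 ± 0.06 (SE), adjusted p = 2.07e-07). Ltv1 had 30.4, 32.1 and 34.5 cpm in controls and 33.1, 37.4 and 44.2 cpm after UV in KO mice, with overlap (log2 fold change 0.24 ± 0.06 (SE), adjusted p = 0.00038). Bysl (bystin) changed by 0.85 in WT and 0.72 in KO mice. Tsr1 changed by 0.62 and 0.37, and 22% of the 100-base windows of its transcripts also occur in other genes, mostly the overlapping gene Srr.

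On the large subunit side, the PeBoW complex, which acts on the middle cleavages of the precursor, was the step with the smallest median in WT mice, at 0.37. Bop1 (chr15:76452989-76477277) had 47.8, 54.7 and 68.2 cpm in controls and 68.9, 89.2 and 95.9 cpm after UV in WT mice (log2 fold change 0.62 ± 0.08 (SE), adjusted p = 4.19e-08). Bop1 had 50.6, 55.6 and 69.2 cpm in controls and 65.95, 80.7 and 90.2 cpm after UV in KO mice, with overlap (log2 fold change 0.52 ± 0.08 (SE), adjusted p = 8.81e-07). Its partner Pes1 (pescadillo, chr11:3963975-3980004) had 78.9, 91.1 and 94.2 cpm in controls and 93.5, 111 and 119 cpm after UV in WT mice (log2 fold change 0.28 ± 0.05 (SE), adjusted p = 4.53e-05). Pes1 had 80.3, 86.2 and 103 cpm in controls and 89.7, 105 and 116 cpm after UV in KO mice (log2 fold change 0.24 ± 0.05 (SE), adjusted p = 0.000381), and its groups overlapped in both genotypes. Wdr12, the other subunit, changed by 0.37 and 0.41 on the log2 scale.

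The remaining 10 large subunit assembly genes were called in both genotypes, with medians of 0.83 in WT and 0.80 in KO mice. Nop2 (chr6:125131909-125144753), a methyltransferase of the large ribosomal RNA, had 33.6, 39.4 and 45.7 cpm in controls and 77.9, 91.6 and 107 cpm after UV in WT mice (log2 fold change 1.19 ± 0.09 (SE), adjusted p = 1.74e-12). Nop2 had 30.8, 37.4 and 48.8 cpm in controls and 68.5, 86.1 and 93.8 cpm after UV in KO mice (log2 fold change 1.12 ± 0.09 (SE), adjusted p = 7.2e-12). Both differences were far beyond the spread of the mice. Noc2l (chr4:156236010-156247616) had 79.9, 86.6 and 108 cpm in controls and 110.0, 121 and 136 cpm after UV in WT mice (log2 fold change 0.46 ± 0.06 (SE), adjusted p = 2.88e-07). Noc2l had 80.3, 83.3 and 99.2 cpm in controls and 105, 117 and 130.2 cpm after UV in KO mice (log2 fold change 0.43 ± 0.06 (SE), adjusted p = 9.87e-07). It overlaps the gene Samd11, and 17.5% of its 100-base windows occur there too. Log2 fold changes in WT and KO mice were 1.14 and 1.11 for Gnl3 (nucleostemin), 0.99 and 0.99 for Nip7, and 0.91 and 0.89 for Ebna1bp2. They were 0.86 and 0.70 for Noc3l, 0.79 and 0.95 for Nop16, 0.77 and 0.70 for Rrs1, which helps to install a small ribosomal RNA, and 0.73 and 0.54 for the methyltransferase Ftsj3. The helicase Ddx18 changed by 0.65 and 0.63, and 34.6% of its 100-base windows are shared with other genes, the highest share of the 41. Together with Nop56 (11.6%), 6 of the 41 genes shared over 10% of their windows, and their levels are uncertain for that reason.

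The genotypes were then compared directly. Between KO and WT controls, none of the 41 genes was called by edgeR, where 0.206% of all genes were called, and DESeq2 and limma-trend called 0 too. None had an unadjusted p under 0.05 in edgeR, against 8.52% of all genes. That number was 0 to 3 in other settings and without single mice. The log2 differences lay between -0.13 (Nop56) and 0.17 (Rrp12). Once exposed to UV, KO mice had the lower estimate for 34 of the 41 genes, against 45.4% of all genes. Single mice shifted most genes in parallel, so such a count is not one of independent replicates. Only Utp20 was called (KO minus WT log2 fold change -0.25 ± 0.07 (SE), adjusted p = 0.0428), against 3.31% of all genes. The median difference was -0.09. An unadjusted p under 0.05 was obtained for 12 genes (29.3%), all lower in KO mice, where 20.1% of all genes had one in either direction. These 12 genes belonged to Pol I (Polr1a, Polr1b), UtpA (Heatr1, Utp4, Wdr75), the rest of the processome (Utp20, Nop14), late small subunit maturation (Tsr1, Ltv1), the scaffold (Mybbp1a) and large subunit assembly (Ftsj3, Noc3l). The number called depended on the setting, with 0 in limma-trend, 4 with RLE scaling, 10 with the filterByExpr filter and 11 in DESeq2. It was 0 without WT UV mice 32M, 38M, 51F, 57F or 59F or KO UV mice 54F or 58M, 2 without 43M, 3 without 59M, 7 without 74F or without 77F, and 10 without the KO control 52M.

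The difference between the UV effects of the genotypes (genotype by UV) was called for none of the 41 genes by edgeR, while 0.765% of all genes were called. An unadjusted p under 0.05 was found for 11 genes (26.8%), all with the smaller rise in KO mice, against 19.6% of all genes in either direction. That number was 1 with libraries scaled by total counts only, 6 without the WT UV mouse 51F and at most 16 in any setting. The smallest adjusted p was that of Utp4 (interaction log2 fold change -0.26 ± 0.09 (SE), adjusted p = 0.123). Limma-trend called 0 and DESeq2 called 3 of the 41, and edgeR called 1 when the 3 KO UV mice with over 5% mitochondrial reads were left out. The estimate was lower in KO mice for 31 of 41 genes, against 7111 of all 15546. This too is a count across genes that are not independent replicates. With the same total-count scaling, the median difference of the 41 genes moved from -0.09 to -0.02 and that of all genes from 0.04 to 0.10, so that these genes stayed below all genes in that difference. Bysl and Wdr43 lie on chromosome 17, as Ppard does, and neither was called in a comparison of genotypes. For Wdr75, called in WT and not in KO mice, the difference itself was not called (interaction log2 fold change -0.26 ± 0.11 (SE), adjusted p = 0.177). The log2 fold changes of the 41 genes in the 2 genotypes had a Pearson r of 0.93 and a Spearman rho of 0.91, near the 0.89 and 0.86 of all genes, computed across genes, which are not independent replicates.

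**Figure D4:**
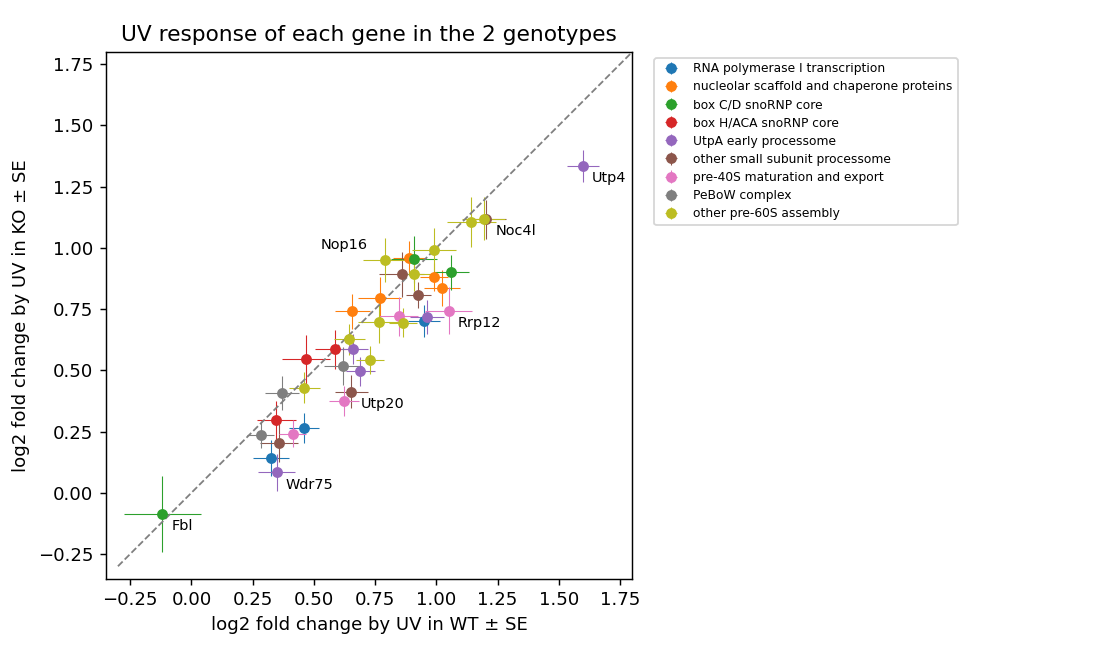
Log2 fold change after UV in WT mice (x axis) against that in KO mice (y axis) for the 41 genes, colored by step, with standard errors and a dashed line of equal change. Below the line lie 31 of the 41 points, among them Utp4, Utp20, Rrp12 and Wdr75, and Nop16 lies above it.

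The sexes were compared in the same fit. In WT mice, 40 genes were called higher in males (29.8% of all genes) and 39 in females (30.1%). In KO mice, 37 were called in males (30.9%) and 36 in females (34%). No gene of the set was called for a sex difference of the UV effect, in WT (0% of all genes called) or in KO mice (0%), with 3 and 2 genes at an unadjusted p under 0.05 in edgeR, against 2.7% and 9.53% of all genes. The latter number rose to 11 with the filterByExpr filter, 9 without 52M, 11 without 74F and 14 without 58M, again with none called. Limma-trend and DESeq2 called 0 as well. Between females and males, none was called in controls (6.86% of all genes) and none after UV (3.03%). After UV, 38 of 41 had the lower estimate in females, against 44.6% of all genes, and here too the genes are not independent replicates. Of the 41, 12 had an unadjusted p under 0.05, all lower in females, where 20.4% of all genes had one in either direction. The smallest adjusted p after UV was 0.0878, for Noc3l.

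Other genes of the pathway were counted from lists that were chosen with earlier results of these data known. Of 123 further factors tested, 108 were called higher and 7 lower after UV in WT mice (median log2 fold change 0.63), and 105 and 7 in KO mice (0.53). Over all genes, 34.5% were called higher in WT mice and 37.3% in KO mice. All 10 other snoRNP and snoRNP assembly genes rose in both genotypes. Among other small subunit factors, 37 of 40 rose in WT and 36 in KO mice, and among other large subunit factors 48 of 52 and 45. For the exosome, which trims and degrades RNA, 8 of 12 rose in WT and 9 in KO mice. In WT mice the largest rises were those of Nmd3, Ddx52 and Nufip1. Nmd3, the export adaptor of the large subunit, had 26.2, 28.5 and 32.2 cpm in controls and 68.1, 78.2 and 87.1 cpm after UV in WT mice (log2 fold change 1.42 ± 0.07 (SE), adjusted p = 1.36e-15). Ddx52, a helicase, had 19.7, 23.3 and 24.3 cpm in controls and 48.5, 54.2 and 68.9 cpm after UV in WT mice (log2 fold change 1.33 ± 0.08 (SE), adjusted p = 3.32e-14). Nufip1, which assembles box C/D snoRNPs, had 10.3, 12.1 and 14.8 cpm in controls and 24.0, 27.9 and 37.1 cpm after UV in WT mice (log2 fold change 1.24 ± 0.10 (SE), adjusted p = 1.85e-11). These 3 genes also rose in KO mice, by 1.15, 1.33 and 1.02 on the log2 scale.

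The other genes of RNA polymerase I, of which 9 of 12 listed were matched by symbol, were called in both directions. In WT mice 5 rose (Polr1c 0.21, Polr1d 0.34, Polr1e 0.81, Taf1d 0.45 and Ttf1 0.41) and 4 fell. Over all genes, 34.5% were called higher and 36.5% lower in WT mice. Those that fell were the promoter factor Ubtf (-0.10), Taf1a (-0.21), Taf1b (-0.20) and Taf1c (-0.32). In contrast to these Taf1 genes, Taf1d rose in both genotypes (0.45 in WT and 0.49 in KO mice). Taf1a, Taf1b and Taf1c fell in KO mice too, by log2 changes of -0.30, -0.31 and -0.42, while Ubtf was not called (log2 fold change -0.05 ± 0.05 (SE), adjusted p = 0.38). In WT mice the calls of Ubtf, Taf1a and Taf1b were lost with RLE scaling, that of Ubtf with upper-quartile scaling and that of Polr1c with total counts only, each with its direction kept. With the sexes apart, 2 of the 9 were called lower in WT males and 1 in WT females. Outside this list, the largest falls in WT mice were those of Exosc5 (log2 fold change -0.47 ± 0.09 (SE), adjusted p = 6.67e-05), an exosome subunit, and Nop53 (log2 fold change -0.33 ± 0.07 (SE), adjusted p = 0.000168), an assembly factor of the large subunit. Nop53 fell in KO mice too (log2 fold change -0.32 ± 0.07 (SE), adjusted p = 0.000314), where Exosc5 was not called (log2 fold change -0.10 ± 0.09 (SE), adjusted p = 0.332).

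Of 78 cytosolic ribosomal protein genes tested, 14 were called higher and 24 lower in WT mice (median log2 fold change -0.08), and 17 and 13 in KO mice (0.03). Over all genes, 36.5% were called lower in WT and 33.5% in KO mice, so neither direction was more frequent here than among all genes. The changes in WT mice ran from -0.76 (Rpl3) to 0.67 (Rpl34). These values are uncertain, since 54 of 79 such genes share over 10% of their 100-base windows with other genes.

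**Figure D5:**
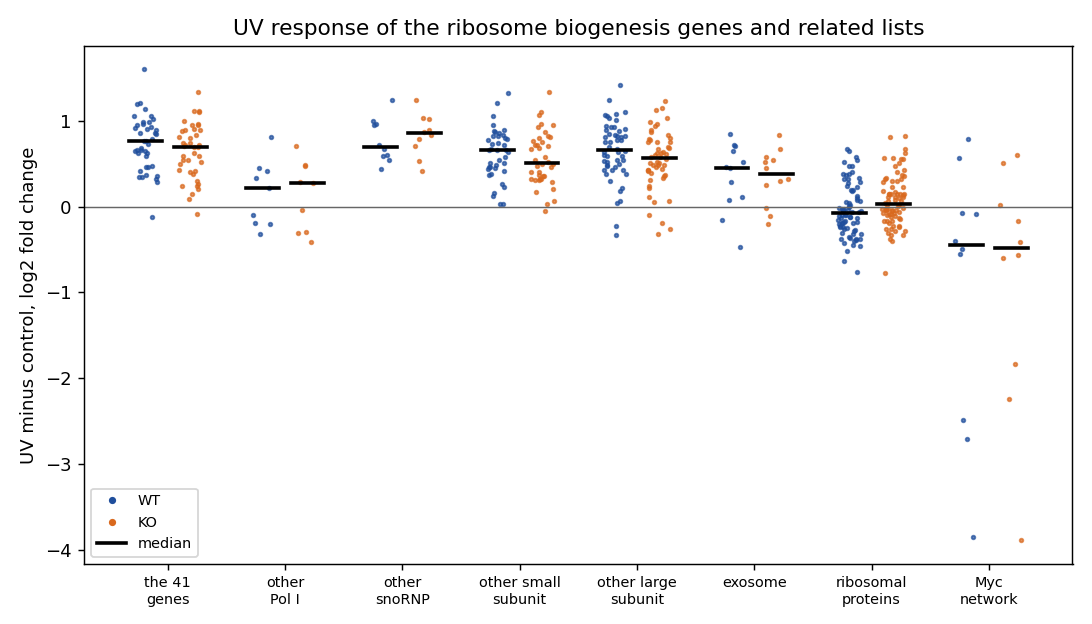
Log2 fold change after UV (y axis) of single genes, as points, in the set of 41 and in 7 related lists (x axis), with WT in blue, KO in orange and a bar at each median. The medians of the 41 genes lie at 0.77 and 0.70, those of the ribosomal proteins at -0.08 and 0.03, and those of the Myc network at -0.45 and -0.49.

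Of the Myc network, whose proteins bind the E-box as dimers, 10 of 11 genes passed the filter. Myc had 54.8, 59.3 and 73.2 cpm in controls and 48.5, 57.4 and 67.3 cpm after UV in WT mice (log2 fold change -0.08 ± 0.08 (SE), adjusted p = 0.372) and 56.7, 60.2 and 66.7 cpm in controls and 44.8, 53.2 and 61.1 cpm after UV in KO mice (log2 fold change -0.17 ± 0.08 (SE), adjusted p = 0.0528). It was not called in either genotype, though with RLE scaling Myc was called lower in KO mice (log2 fold change -0.17, adjusted p = 0.0363). Mycl fell most, with 115, 140.3 and 188 cpm in controls and 8.09, 9.97 and 12.5 cpm after UV in WT mice (log2 fold change -3.85 ± 0.12 (SE), adjusted p = 1.8e-19). Mxd4, a repressor partner of Max, had 158, 169 and 198 cpm in controls and 25.9, 31.6 and 35.1 cpm after UV in WT mice (log2 fold change -2.49 ± 0.08 (SE), adjusted p = 7.21e-20). Also lower in WT mice were Mxd3 (-2.71), Mga (-0.55), Mxi1 (-0.50) and Max (-0.41). Higher were Mlx (0.79), which dimerizes with glucose-sensing factors, and Mxd1 (0.57), and Mnt was not called (log2 fold change -0.08 ± 0.08 (SE), adjusted p = 0.363). In KO mice Mycl (-3.89), Mxd4 (-2.24), Mxd3 (-1.84), Mga (-0.60), Mxi1 (-0.56) and Max (-0.41) were lower, and Mlx (0.60) and Mxd1 (0.51) were higher. Mycn did not pass the filter.

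Over all 32 mice, the genes outside the set whose level followed its mean most closely were Cct3, a subunit of the chaperonin that folds actin and tubulin (Pearson r = 0.99), the nucleolar factors Lyar, Pwp1 and Nop9 (each 0.98) and Nars, an aminoacyl-tRNA synthetase (0.98). All mice share the difference between UV and control, which raises these values. Within the 16 control mice r was 0.66 to 0.88, and within the 16 UV mice 0.67 to 0.86. These correlations are a description.

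Other cell types and states moved along with the treatment. All 7 suprabasal keratinocyte markers fell in both genotypes, from 65748 to 76576 summed cpm in WT controls to 11754 to 24842 cpm after UV. Of 6 basal markers, 3 rose and 2 fell in WT mice and 4 rose and 1 fell in KO mice, while the sum rose from 7117 to 16276 cpm to 17028 to 29500 cpm in WT mice. Neutrophil and monocyte markers rose for 5 of 6 genes in WT mice (22.8 to 153 summed cpm in controls, 655 to 1572 cpm after UV) and for 6 of 6 in KO mice. T cell markers fell for 5 of 6 genes in WT and 4 of 6 in KO mice, and Langerhans cell markers for 5 of 6 in both, with 1 of 6 higher in KO mice. Of 10 proliferation markers, 7 fell in WT mice (median -0.64) and none in KO mice, where 2 rose (median 0.15), and none was called for genotype by UV. In WT females 7 were called lower (median -1.01) and in WT males 1 (median -0.27), and none was called for a sex difference of the UV effect. The part of these cell types and states in the rise of the 41 genes was not tested. Skeletal muscle markers ranged from 3.82 to 3468 summed cpm with no gene called after UV, and Myh4 and Myh1 were at 0 in some mice. Dermal fibroblast markers fell for 3 of 6 genes in WT mice, and all 6 were called higher in KO than in WT mice after UV; in that group 54F stood apart, as described. For endothelium 3 of 4 genes rose in each genotype, for melanocytes 1 of 4, for adipocytes 1 of 2, and for red blood cells none of 4, all at low levels.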

How the data were processed

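Epidermal RNA of 32 mice (RNA quality numbers 6.4 to 8.4 per the labels) was sequenced from poly(A)-selected, stranded libraries as single reads. The authors trimmed the reads (Cutadapt 1.8), removed ribosomal and low-complexity reads, aligned them with STAR 2.5.3a to GRCm38 (submitters' processing notes, although the methods text names a human build) and deposited read counts per gene from HTSeq 0.9.1, without normalization. Reads aligned to several places were not counted, ribosomal RNA was not measured, and the strand setting is not given in the sources used here. Reads on no feature (6.80% to 9.75%) were left out.

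A gene entered the tests if any mouse reached 1 cpm (15546 genes). Libraries were scaled by TMM, and edgeR 4.0.16 (R 4.3.3) fitted 8 group means to the counts of all 32 mice, where the study used limma-trend. Genes were called at a Benjamini-Hochberg adjusted p under 0.05 over all genes in the quasi-likelihood test, which also gave every p and SE here. The UV effect of a genotype is the mean of its male and female effects. Mean levels use log2 cpm with a prior count of 1. Alternatives were RLE, upper-quartile or no scaling, other filters, DESeq2 1.42.0, limma-trend (limma 3.58.1), separate fits by genotype and leaving out each mouse, and, added after seeing the data, leaving out 3 KO mice. Mice of a group differed by far more than counting noise (chi-square 19.5 to 134 per degree of freedom), and the reads carry no molecular identifiers.

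The genes and lists were chosen with earlier results of these data known. Values by group were given for the genes with the largest and smallest UV effect in WT mice of each step, for genes called in a genotype or interaction comparison, for the largest changes of other pathway genes and for the Myc network. Overlap with other genes was measured on GENCODE M21 transcripts in windows of 100 bases.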

Additional observations from a re-analysis of the deposited data

Results flagged for a closer look

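In 9 of 160 sets of 4 mice, each 1 measure in 1 group, a single mouse lay far from the other 3 by Dixon's ratio, and chance alone flags about 1 set in 20. Among WT male controls, mouse 43M was the highest, with 150.4 cpm of Mybbp1a where the others had 109.6 to 109.9, and with 108.0 cpm of Noc2l where the others had 79.9 to 83.6. In WT females after UV, 57F was the lowest for Npm1 (169.8 cpm, others 204 to 209) and Ddx10 (24.6 cpm, others 31.0 to 32.2), and 77F for Bop1 (68.9 cpm, others 88.5 to 90.9). The KO male control 44M had 73.6 cpm of Utp20 (others 58.9 to 61.2). In KO females after UV, 54F had 5.19 cpm of Fbl (others 4.09 to 4.23), 52F had 33.1 cpm of Ltv1 (others 36.9 to 37.2), and 74F had 86.3 cpm of Bop1 (others 80.5 to 81.0). Without 43M, 57F or 77F, 40 genes were still called after UV in WT mice, and without 44M, 54F, 52F or 74F, 38 were still called in KO mice, while the number called for KO minus WT after UV went from 1 to 0 without 57F or 54F, to 2 without 43M and to 7 without 77F or 74F.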

How the results depend on the processing

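Under 8 other settings, an exclusion chosen after seeing the data and the removal of each of 32 mice in turn, 40 of the 41 genes were called higher after UV in WT mice and 37 to 39 in KO mice. Median log2 fold changes were 0.72 to 0.82 and 0.66 to 0.74. For single genes and UV in 1 genotype, 3309 comparisons kept direction and call, 8 lost the call, 4 gained it and 0 changed direction; the changed calls were those of Polr1b, Wdr75 and Ddx10 in KO mice. For genotype by UV, DESeq2 called 3 genes and the fit without the 3 KO UV mice high in mitochondrial reads called 1. For KO minus WT after UV the number called was 4 with RLE scaling, 10 with filterByExpr, 11 in DESeq2 and 0 in limma-trend, and 0 to 10 when single mice were left out; the cause was not tested. No paired analysis was made, because each library came from a different mouse and the sample labels pair no mice. Depth was lowest for Fbl, with a mean of 134 reads, and its SE of 0.16 after UV in WT mice was the largest of the 41.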
